A study of Xenopus tropicalis with 9 samples.

Results

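Collagens are the main structural proteins of skin, tendon and connective tissue, and the Xenopus tropicalis tadpole tail is rich in them until metamorphosis, when thyroid hormone drives the tail to resorb. Described here are 38 genes that encode collagen chains or the enzymes and chaperone that process them, of 19921 genes in the count table. They were chosen by symbol from the authors' 2 deposited lists of named genes, which together name 6462 genes. A gene was taken if its symbol was that of a collagen chain, a prolyl or lysyl hydroxylase, a lysyl oxidase, the procollagen proteinase gene bmp1, a procollagen enhancer or the chaperone gene serpinh1, and if it had at least 10 counts over the 9 libraries. COL9A1, named for the notochord, was left out by that rule. No gene that matched fell under 10 counts, and the lowest total was 130 counts, for one of 2 identifiers named col6a3. By chain type the genes are 7 fibrillar, 7 network-forming, 5 fibril-associated (FACIT), 3 transmembrane, 1 multiplexin and 5 other collagens. A further 9 are processing enzymes or the chaperone. The last, col4a3bp, matched the rule by its symbol only, since it encodes a ceramide transfer protein and not a collagen.

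The study measured RNA by sequencing in 3 groups of 3 libraries: notochord-removed tails at stage 63, whole tails at stage 63, and whole tails at stage 60. Stage 60 is before metamorphosis and stage 63 during it, per the series' description. The animals are wild type, and no allele or agent is named for any group. Libraries came from total RNA of removed tails, and the labels do not say how many animals a library holds or how the notochord was taken out.

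A collagen is made of 3 chains wound into a helix in the endoplasmic reticulum, where hydroxylases modify prolines and lysines and the chaperone serpinh1 binds the folded helix. Outside the cell, proteinases cut off the end peptides, fibrillar collagens assemble into striated fibrils, and lysyl oxidases start the crosslinks. Network collagens form sheets such as basement membranes, FACITs sit on the surface of fibrils, and transmembrane collagens anchor cells to the matrix.

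Levels are given in CPM, counts scaled to a common library size, after correction by the trimmed mean of M values (TMM), which allows for differences in composition. Where genes are compared with each other, CPM was divided by gene length (CPM per kb). Differences between groups are log2 fold changes with their standard error (SE) from edgeR's quasi-likelihood test, and a gene was called where the Benjamini-Hochberg adjusted p over all 14125 genes tested was under 0.05. All 38 genes were tested.

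Each library held between 26928846 and 34836531 counts. TMM factors were between 1.22 and 1.25 for notochord-removed tails, between 1.18 and 1.22 for whole stage 63 tails and between 0.672 and 0.69 for stage 60 tails. Scaling by library size alone would raise the median log2 difference of all genes between the stages by 0.82. Every log2 stage difference below is therefore relative to the TMM scaling, unless another scaling is named. Marker genes were found by symbol in the authors' deposited lists only, and 7 of 8 notochord markers were named there. They summed to between 50.4 and 66.5 CPM in notochord-removed tails and between 135 and 140 CPM in whole stage 63 tails. In stage 60 tails the sum was between 3475 and 3513 CPM. Most of the sum in both stage 63 groups was krt8, with means of 52.1 CPM in notochord-removed and 108 CPM in whole tails. For the notochord comparison the log2 differences of the 7 ran from -1.05 for krt8 to -5.35 for chad. All 7 were picked by the authors for a ratio above 2 of whole over notochord-removed tails at stage 63. Their lower sum without the notochord thus comes with that choice. Between the stages 6 were called lower, while tbxt was higher by 0.73 (SE 0.16). Of the 7 only tbxt is also in the authors' stage list, so its rise comes with that choice. Defining markers of fibroblasts (6 of 8 named), epidermis (6 of 7), endothelium (6 of 6) and leukocytes (6 of 6) were present in all groups. The named ones are all in the authors' list of genes with a ratio above 2 between stage 63 and stage 60. Their higher sums at stage 63 therefore come with that choice. Leukocyte markers summed to between 803 and 834 CPM in notochord-removed tails, with 3 of 6 called lower than in whole tails, between 911 and 928 CPM in whole stage 63 tails and between 335 and 359 CPM in stage 60 tails. Skeletal muscle markers, 3 of 7 named, summed to between 39.0 and 54.5 CPM in notochord-removed tails and between 78.4 and 82.4 CPM in whole stage 63 tails. In stage 60 tails the sum was between 693 and 720 CPM, of which pgam2 had a mean of 675 CPM. The markers myl3 and pgam2 were picked by the authors as lower without the notochord, so that fall comes with the choice. The third, pygm, was not, and differed by -0.028 (SE 0.12) for the notochord. Between the stages pygm was higher by 0.39 (SE 0.13), while myl3 and pgam2 were lower. The rise of pygm comes with its choice, since it was named through the authors' stage list. The part of leukocytes or muscle in the collagen differences was not tested. In bulk RNA, fewer cells of a type and less RNA per cell cannot be told apart.

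In notochord-removed tails the library numbered 3 stood apart for some of these genes. Distance between libraries over all genes was taken as chi-square per degree of freedom. In notochord-removed tails it was 3.09 for libraries 1 and 2, 22.9 for 1 and 3 and 19.9 for 2 and 3. In whole stage 63 tails the matching values were 9.72, 21.9 and 5.06, so there library 1 was the most distant. Against the mean of the other 2 libraries of its group, 24 of the 38 genes were higher and 14 lower in the library numbered 3 of notochord-removed tails, with a median of 0.13 (log2) against -0.033 over all genes tested. The third library of whole stage 63 tails had 28 genes higher and 10 lower, with a median of 0.11 against 0.0008 over all genes. At stage 60 the split was 20 and 18. COL6A3 was 0.83 above the other 2 libraries in notochord-removed tails and 0.43 in whole stage 63 tails. The matching values were 0.65 and 0.37 for col12a1, 0.49 and 0.29 for col18a1, and -0.47 and -0.39 for col21a1. Over all genes, the shift in notochord-removed tails differed by gene length, with a median of -0.079 in the shortest quartile and 0.03 in the longest. The matching medians were -0.051 and 0.038 in whole stage 63 tails and 0.015 and -0.016 in stage 60 tails. For the notochord comparison, values without the notochord-removed library numbered 3 are given below for the genes whose call it changed.

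**Figure D1:**
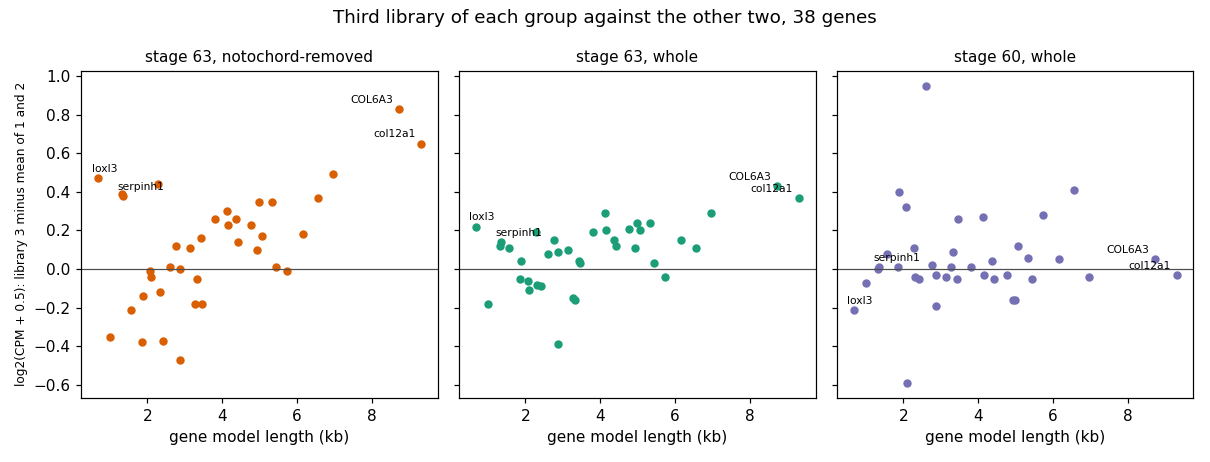
Deviation of the library numbered 3 from the mean of libraries 1 and 2 of the same group (log2, CPM + 0.5; vertical axis) against gene model length in kb, with 1 point per gene and a panel per group. COL6A3 and col12a1 lie highest in both stage 63 groups, at 0.83 and 0.65 in notochord-removed tails.

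The first comparison asked how the collagen genes of the whole tail differed between stage 63 and stage 60. The type III chain gene col3a1 and the type IV chain genes col4a1 and col4a2 were at least 9.1-fold higher at stage 63. The gene col1a2, the leading chain among these genes at stage 60, was only 1.34-fold higher. All 38 genes are in the authors' list of genes with a ratio above 2 between these stages, so the values are a description of a chosen set and carry no test. In the authors' deposited table the ratio ran from 2.37 for col1a2 to 375 for col20a1. On the TMM scale, 37 of the 38 genes were called higher at stage 63 and 0 lower, against 43.0% higher and 40.8% lower of all genes tested. Of the 5579 tested genes named in the authors' stage list 93.4% were called higher, so a share this high comes with the choice of genes. The exception was col8a1. With library size alone 9501 of all genes were higher and 2821 lower. The genes called at least 2-fold higher were 31 of the 38, against 23.9% of all genes and 2837 of the 5579 of the stage list. For 37 every whole stage 63 library lay above every stage 60 library, against 44.0% of all genes and 5252 of the 5579. The median log2 difference was 1.84 over the 38 genes and 0.051 over all genes tested, and it was 1.02 over the tested genes of the authors' stage list.

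Among the 28 chain genes described, fibrillar chains made up most of the summed level per kb in every library. The gene col3a1 encodes the chain of type III collagen, a fibrillar collagen of skin and other compliant tissues. It had 2838, 2857 and 3338 CPM in notochord-removed tails, 2659, 2833 and 3181 CPM in whole stage 63 tails and 332, 308 and 312 CPM in stage 60 tails. Both stage 63 groups lay above every stage 60 library and overlapped with each other. The log2 difference between the stages in whole tails was 3.19 (SE 0.089), or 9.1-fold. Of 8 fibroblast markers, 6 were named. They summed to between 2923 and 3345 CPM in notochord-removed tails and between 3509 and 3821 CPM in whole stage 63 tails. In stage 60 tails the sum was between 986 and 1073 CPM. Between the stage 63 groups only FAP of these markers was called, lower by 0.52 (SE 0.064) without the notochord. Its means were 897 CPM in notochord-removed and 1286 CPM in whole stage 63 tails, and the other 5 markers were not called. The part of fibroblasts in the fibrillar levels was not tested.

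Type I collagen, the main fibrillar collagen of skin, tendon and bone, is built of chains from 2 genes, of which col1a2 is among the genes described. It had 1801, 1863 and 2154 CPM in notochord-removed tails, 1605, 1706 and 1895 CPM in whole stage 63 tails and 1315, 1298 and 1275 CPM in stage 60 tails. The stages did not overlap, but the difference in whole tails was 0.42 (SE 0.079), the smallest of the 38. Ranked by CPM per kb, col1a2 led at stage 60 with 311, or 52.0% of the summed chains, and col3a1 followed with 66.4, or 11.1%. In whole stage 63 tails col3a1 led with 605 CPM per kb (28.9%) and col1a2 had 417 (19.9%). In notochord-removed tails col3a1 also led, with 630 (29.4%), ahead of col1a2 with 466 (21.8%).

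Type V collagen forms mixed fibrils with type I and is known to start them and limit their width. Its chain gene COL5A2 had 744, 762 and 831 CPM in notochord-removed tails, 754, 820 and 855 CPM in whole stage 63 tails and 117, 115 and 112 CPM in stage 60 tails. Its partner col5a1 had 425, 420 and 477 CPM in notochord-removed tails, 427, 443 and 482 CPM in whole stage 63 tails and 53.7, 53.2 and 55.5 CPM in stage 60 tails. Both differed between the stages by about the same amount, 2.82 (SE 0.074) for COL5A2 and 3.06 (SE 0.076) for col5a1. The third type V gene, COL5A3, had 22.5, 23.4 and 28.4 CPM in notochord-removed tails, 23.5, 24.6 and 29.5 CPM in whole stage 63 tails and 13.2, 11.5 and 15 CPM in stage 60 tails. Its stage difference was smaller, at 0.97 (SE 0.11).

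The genes col24a1 and col27a1 encode minor fibrillar collagens that in mammals mark skeletal tissue. The level of col27a1, a collagen of cartilage, was 81.8, 82.4 and 82.7 CPM in notochord-removed tails, 78.1, 73.5 and 77.3 CPM in whole stage 63 tails and 11.6, 9.53 and 10.1 CPM in stage 60 tails. The level of col24a1 was 18, 17.4 and 17.6 CPM in notochord-removed tails, 23.4, 22.8 and 22.5 CPM in whole stage 63 tails and 15.3, 14 and 17.9 CPM in stage 60 tails. Between the stages col27a1 differed by 2.87 (SE 0.077) and col24a1 by 0.55 (SE 0.082), so the members of this pair moved by different amounts. Of 5 chondrocyte markers, 2 were named in the authors' lists, and the levels of the others were not examined. Those named summed to between 8.03 and 8.94 CPM in notochord-removed tails and between 7.66 and 9.09 CPM in whole stage 63 tails. In stage 60 tails the sum was between 3.78 and 4.99 CPM. Both, sox9 and hapln1, were named through the authors' stage list, so their higher sum at stage 63 comes with that choice.

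**Figure D2:**
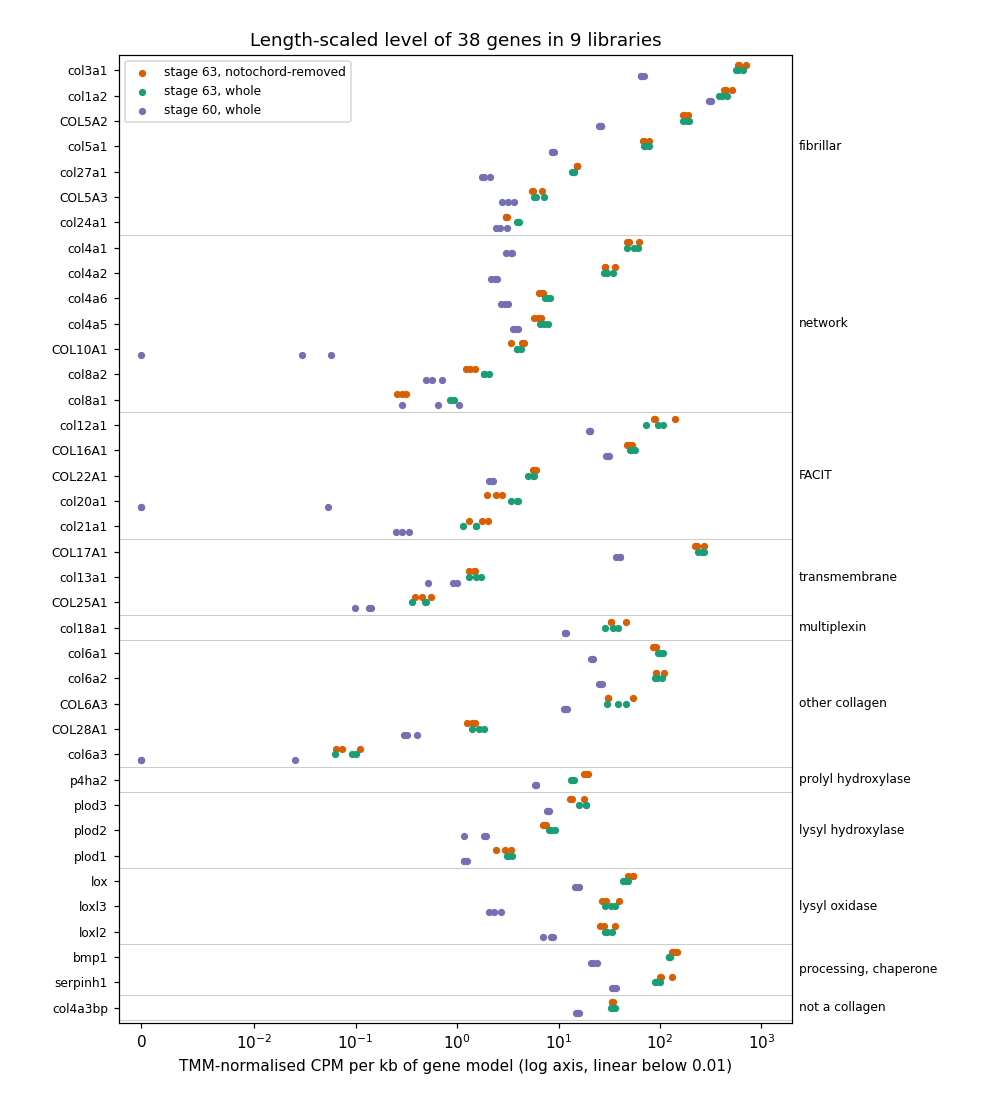
Length-scaled level (TMM-normalised CPM per kb, log axis that turns linear below 0.01) of each of the 38 genes, ordered by class, with 1 point for each of 3 libraries per group in the group's colour. Most genes show both stage 63 groups together and stage 60 to their left, and col3a1 and col1a2 are the highest at stage 63.

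Among network collagens, type IV is the scaffold of basement membranes, and col4a1 and col4a2 encode its most widespread chains. The level of col4a1 was 255, 263 and 330 CPM in notochord-removed tails, 253, 295 and 321 CPM in whole stage 63 tails and 18.4, 16.1 and 18 CPM in stage 60 tails. That of col4a2 was 142, 143 and 182 CPM in notochord-removed tails, 139, 151 and 172 CPM in whole stage 63 tails and 11.7, 12.4 and 10.8 CPM in stage 60 tails. With stage differences of 4.05 (SE 0.12) and 3.73 (SE 0.11) in whole tails, both moved more than any fibrillar chain. The genes col4a5 and col4a6 encode chains of a second type IV network, known in mammals from skin and smooth muscle. Their stage differences were smaller, at 0.93 (SE 0.084) for col4a5 and 1.41 (SE 0.076) for col4a6. At stage 60, col4a1 and col4a5 were close per kb, at 3.28 and 3.79 CPM per kb. In whole stage 63 tails they were at 54.3 and 7.21 CPM per kb.

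Type X collagen, the short-chain network collagen of hypertrophic cartilage, was nearly absent before metamorphosis. COL10A1 had 8.54, 8.09 and 6.28 CPM in notochord-removed tails, 7.84, 7.14 and 7.21 CPM in whole stage 63 tails and 0.107, 0 and 0.0552 CPM in stage 60 tails. The stage 60 libraries held 3 counts in all, against 863 in whole stage 63 tails, a ratio of 139 with an exact 95% counting interval of 47.4 to 675. Of 6 osteoblast markers, 4 were named, of which runx2 and alpl were tested and sp7 and ibsp were not. The 2 tested summed to between 62.7 and 74.9 CPM in notochord-removed tails and between 74.6 and 82.7 CPM in whole stage 63 tails. In stage 60 tails the sum was between 20.7 and 24.6 CPM. Both were named through the authors' stage list, so their higher sum at stage 63 comes with that choice. Between the stage 63 groups runx2 was called lower without the notochord (-0.26, SE 0.069), and alpl was not called. The part of bone or cartilage cells in the COL10A1 level was not tested.

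Type VIII collagen forms hexagonal lattices under endothelia. Its chains stayed low in all groups, and col8a1 was the gene not called between the stages, with a difference of 0.44 (SE 0.25). The stage 60 libraries spread from 0.746 to 2.71 CPM, on both sides of the 2.24 to 2.42 CPM of whole stage 63 tails. The stage difference of col8a2 was 1.70 (SE 0.17).

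Of the FACIT genes, col12a1 was the most abundant per kb at stage 63. Type XII collagen coats the fibrils of dense connective tissue. It had 820, 836 and 1299 CPM in notochord-removed tails, 677, 888 and 1002 CPM in whole stage 63 tails and 191, 190 and 187 CPM in stage 60 tails. The stage 63 groups lay above stage 60 in every library but spread widely, and the stage difference was 2.18 (SE 0.21). The gene col20a1 had 2.80, 2.44 and 1.95 CPM in notochord-removed tails, 3.88, 3.96 and 3.41 CPM in whole stage 63 tails and 0.0533, 0 and 0 CPM in stage 60 tails. A single count was found at stage 60, against 435 in whole stage 63 tails, a ratio of 210 with an exact 95% counting interval of 37.5 to 8314. Of the other 3 FACIT genes, col21a1 differed between the stages by 2.26 (SE 0.24), COL22A1, a collagen of tissue junctions such as that of muscle and tendon, by 1.32 (SE 0.087), and COL16A1 by 0.82 (SE 0.067).

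COL17A1 encodes the transmembrane collagen of hemidesmosomes, which fix the basal epidermis to its basement membrane. It had 970, 1005 and 1186 CPM in notochord-removed tails, 1036, 1131 and 1198 CPM in whole stage 63 tails and 177, 163 and 175 CPM in stage 60 tails. At 256 CPM per kb it ranked after col3a1 and col1a2 among the chains of whole stage 63 tails, and the stage difference was 2.71 (SE 0.086). The 6 epidermal markers named summed to between 2836 and 3012 CPM in notochord-removed tails and between 2680 and 2774 CPM in whole stage 63 tails. At stage 60 they summed to between 724 and 755 CPM. Between the stage 63 groups cldn4 (0.41, SE 0.07) and epcam (0.32, SE 0.069) were called higher without the notochord, and the other 4 were not called. The part of the epidermis in the COL17A1 difference was not tested. The other transmembrane genes, col13a1 and COL25A1, did not exceed 3.22 CPM in any library. The multiplexin gene col18a1 encodes a basement membrane proteoglycan whose end fragment is endostatin. It had 230, 231 and 325 CPM in notochord-removed tails, 202, 239 and 270 CPM in whole stage 63 tails and 83.3, 80.5 and 79.8 CPM in stage 60 tails, a stage difference of 1.54 (SE 0.13).

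Type VI collagen forms beaded microfilaments around cells from 3 kinds of chain. The stage differences were 2.26 (SE 0.067) for col6a1, 1.87 (SE 0.082) for col6a2 and 1.70 (SE 0.27) for COL6A3. COL6A3 had 266, 269 and 475 CPM in notochord-removed tails, 263, 338 and 401 CPM in whole stage 63 tails and 100, 103 and 105 CPM in stage 60 tails. The library numbered 3 was the highest in both stage 63 groups, by 1.78-fold over the other 2 in notochord-removed tails. The second identifier of that name, col6a3 (ENSXETG00000012557), had only 62, 65 and 3 counts over the libraries of notochord-removed, whole stage 63 and stage 60 tails. Reads can be shared between copies, so its values are uncertain. COL28A1, a peripheral nerve collagen in mice, differed by 2.25 (SE 0.17).

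The processing genes were also all higher at stage 63, with a median stage difference of 1.59 over the 9 genes. That direction comes with the choice of genes, since all 9 are in the authors' stage list, whose tested genes had a median of 1.02. The proteinase gene bmp1, whose product removes the carboxyl propeptides of fibrillar procollagens, had 446, 466 and 508 CPM in notochord-removed tails, 419, 422 and 433 CPM in whole stage 63 tails and 82.0, 72.1 and 74.4 CPM in stage 60 tails. Its difference of 2.48 (SE 0.073) was exceeded among the 9 by loxl3. That lysyl oxidase gene had 18.1, 19.7 and 26.4 CPM in notochord-removed tails, 19.5, 21.9 and 24.1 CPM in whole stage 63 tails and 1.81, 1.54 and 1.38 CPM in stage 60 tails. Its difference was 3.79 (SE 0.19), against 1.93 (SE 0.13) for loxl2, known for crosslinking type IV collagen, and 1.59 (SE 0.073) for lox. The lysyl hydroxylase genes differed by 2.36 (SE 0.12) for plod2, which modifies the fibril-forming chain ends, and by less for plod1 (1.42) and plod3 (1.18), which act on helix lysines and on their sugars. The smallest enzyme differences besides plod3 were those of p4ha2 (1.20, SE 0.072), a catalytic subunit of prolyl hydroxylase, and serpinh1 (1.39, SE 0.092). The gene that is no collagen, col4a3bp, differed by 1.16 (SE 0.063).

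By class, the median stage difference was 2.82 for fibrillar, 1.70 for network, 2.18 for FACIT, 1.81 for transmembrane and 2.25 for the other collagen genes. Summed over the 28 chain genes, the level was 1991, 2030 and 2400 CPM per kb in notochord-removed tails, 1920, 2080 and 2282 CPM per kb in whole stage 63 tails and 610, 591 and 594 CPM per kb in stage 60 tails. The chains took between 1.15% and 1.46% of all raw counts in notochord-removed tails, between 1.06% and 1.34% in whole stage 63 tails and between 0.18% and 0.185% in stage 60 tails. These percentages do not use the TMM factors or gene length, so they are on another scale than the sums per kb. The makeup differed as well. Fibrillar chains formed 63.9 ± 1.05% of the summed level in notochord-removed tails, 62.2 ± 0.552% in whole stage 63 tails and 70.2 ± 0.471% in stage 60 tails (SD, n = 3 each). Network chains formed 4.80 ± 0.0682% in notochord-removed tails, 5.11 ± 0.0887% in whole stage 63 tails and 2.28 ± 0.0747% in stage 60 tails (SD, n = 3 each). Transmembrane chains, almost all COL17A1, formed 11.3 ± 0.0943% in notochord-removed tails, 12.3 ± 0.228% in whole stage 63 tails and 6.70 ± 0.272% in stage 60 tails (SD, n = 3 each). A share within a library does not depend on scaling between libraries. In each of these 3 classes the stage 63 libraries did not overlap those of stage 60. Chains outside the 28, such as the second type I chain, were not analysed here, so the shares hold only among these genes. All 28 are in the authors' list of genes with a stage ratio above 2, and chains without such a ratio are not in the sums.

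**Figure D3:**
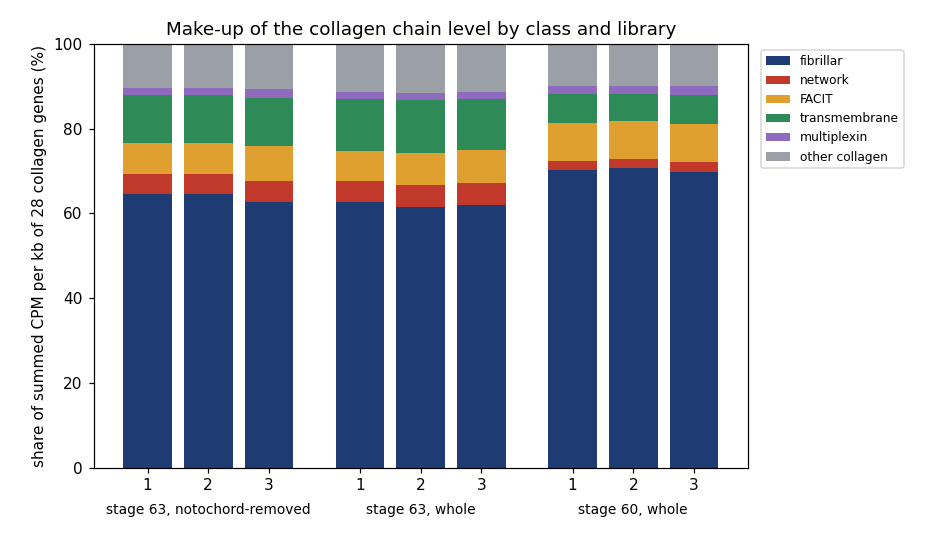
Share of the summed collagen chain level (CPM per kb, percent) taken by each chain class, as 1 stacked bar for each of the 3 libraries per group. Fibrillar chains have the largest share in all groups, with means of 63.9% in notochord-removed tails, 62.2% in whole stage 63 tails and 70.2% in stage 60 tails.

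Ratios between chains of the same library show the change of makeup gene by gene, and since each stage ratio combines genes of the stage list, they too are descriptions. The ratio of col3a1 to col1a2 per kb was 1.37, 1.34 and 1.35 in notochord-removed tails, 1.44, 1.45 and 1.46 in whole stage 63 tails and 0.22, 0.207 and 0.213 in stage 60 tails. The order of both chains thus turned round between the stages. For col4a1 over col4a5, the ratio was 8.34, 7.91 and 9.21 in notochord-removed tails, 7.29, 7.61 and 7.65 in whole stage 63 tails and 0.917, 0.839 and 0.84 in stage 60 tails. The 2 chains of the common type IV network kept closer to each other, with a col4a1 to col4a2 ratio of 1.70 ± 0.0182 in notochord-removed tails, 1.76 ± 0.0633 in whole stage 63 tails and 1.42 ± 0.178 in stage 60 tails (SD, n = 3 each). The minor fibrillar chain col24a1 over col27a1 was 0.203 ± 0.0044 in notochord-removed tails, 0.284 ± 0.00911 in whole stage 63 tails and 1.44 ± 0.219 in stage 60 tails (SD, n = 3 each). The order of these chains also turned round between the stages, as did that of col18a1 and col4a1, whose ratio was 0.706 ± 0.0424 in notochord-removed tails, 0.626 ± 0.0153 in whole stage 63 tails and 3.57 ± 0.225 in stage 60 tails (SD, n = 3 each). The chaperone serpinh1 over col3a1 was 0.176 ± 0.0112 in notochord-removed tails, 0.154 ± 0.00508 in whole stage 63 tails and 0.533 ± 0.0112 in stage 60 tails (SD, n = 3 each). The prolyl hydroxylase p4ha2 over col3a1 was 0.0304 ± 0.00407 in notochord-removed tails, 0.0228 ± 0.00294 in whole stage 63 tails and 0.0900 ± 0.00405 in stage 60 tails (SD, n = 3 each). Both processing genes were thus lower per unit of type III message at stage 63 than at stage 60, although their own levels were higher. The direction depended on the chain chosen. In whole tails serpinh1 was 2.62-fold and p4ha2 2.29-fold higher at stage 63, against 9.1-fold for col3a1 and 1.34-fold for col1a2. The summed level of the 9 enzyme and chaperone genes was set against that of the 28 chains. It was 19.1 ± 0.323% in notochord-removed tails, 17.7 ± 1.02% in whole stage 63 tails and 16.7 ± 0.278% in stage 60 tails (SD, n = 3 each).

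**Figure D4:**
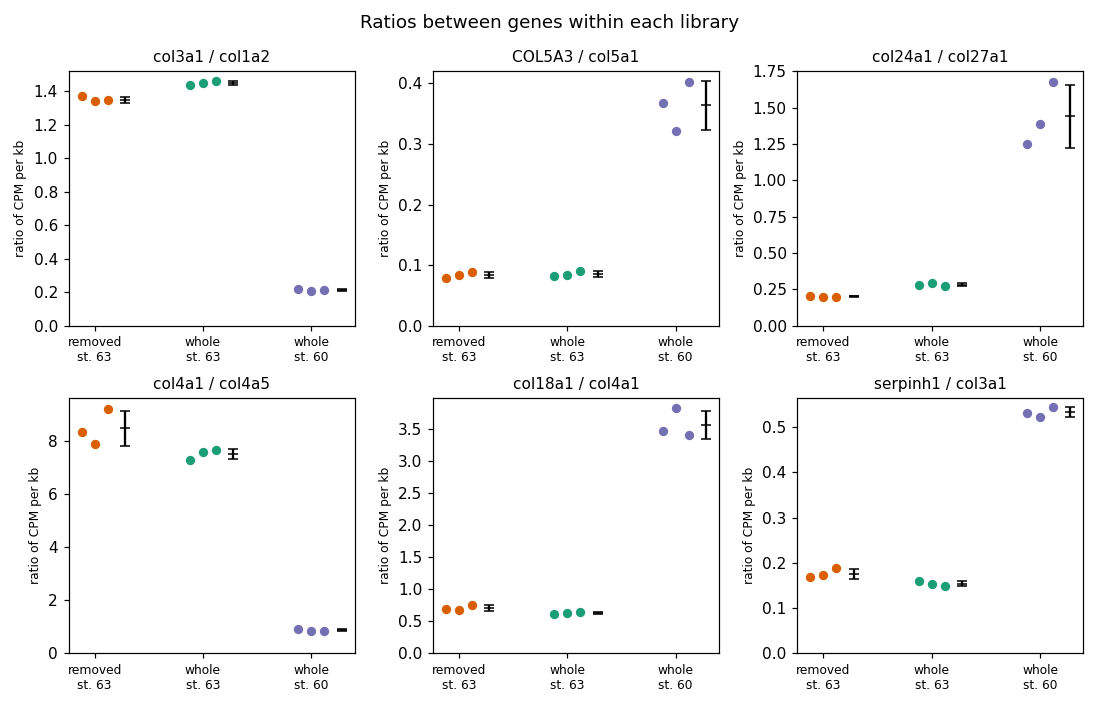
Ratio of CPM per kb between 2 genes of the same library for 6 pairs of genes (linear axes from 0), with 1 point per library and black bars for the mean ± SD of 3 libraries per group. The ratio of col3a1 to col1a2 lies between 1.34 and 1.46 in all 6 stage 63 libraries and between 0.207 and 0.22 in the 3 stage 60 libraries.

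The second comparison asked which collagen genes differed between notochord-removed and whole tails at stage 63. Most did not pass the test, including the abundant fibrillar chains, while the network genes col4a6, col8a1 and col8a2, the FACIT gene col20a1, the minor fibrillar gene col24a1 and the type VI gene col6a1 were lower without the notochord and p4ha2 and serpinh1 were higher. Of the 38 genes, 2 were higher, 6 lower and 30 not called, or 21.1% called, against 25.6% of all genes tested (14.5% higher and 11.1% lower). Among all genes, 1.02% were called and at least 2-fold lower, and of the 38 only col8a1 was. The groups did not overlap for 11 of the 38 genes, against 39.3% of all genes tested in either direction. The median difference was -0.029 over the 38 and -0.0065 over all genes. Only col8a1 had been picked by the authors on this contrast, for a ratio above 2, and its difference is therefore given without a test. Of the other 37 genes, 7 were called, or 18.9%.

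The level of col8a1 was 0.820, 0.674 and 0.754 CPM in notochord-removed tails, 2.27, 2.24 and 2.42 CPM in whole stage 63 tails and 0.746, 1.70 and 2.71 CPM in stage 60 tails. Its notochord-removed libraries lay below all whole libraries of stage 63, 3.07-fold lower with a log2 difference of -1.62 (SE 0.25). Its partner chain col8a2 had 3.14, 2.56 and 2.82 CPM in notochord-removed tails and 3.83, 4.28 and 3.88 CPM in whole stage 63 tails. It fell by 0.49 (SE 0.12) without the notochord, with an adjusted p of 0.00705 in edgeR's quasi-likelihood test and no overlap. The ratio of col8a2 to col8a1 per kb was 4.73 ± 0.0537 in notochord-removed tails, 2.16 ± 0.199 in whole stage 63 tails and 1.14 ± 0.717 in stage 60 tails (SD, n = 3 each). Endothelial markers moved the other way, with 4 of 6 called higher in notochord-removed tails and a sum between 170 and 182 CPM there, against 138 to 143 CPM in whole stage 63 tails, and their part in the type VIII values was not tested.

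Of the type IV chains, col4a6 had 33.3, 31.8 and 34.9 CPM in notochord-removed tails and 36.6, 39.2 and 40.8 CPM in whole stage 63 tails. It fell by 0.22 (SE 0.067; adjusted p = 0.0204, edgeR's quasi-likelihood test). The call was lost without notochord-removed replicate 2, whole stage 63 replicate 2 or whole stage 63 replicate 3, and with scaling by library size only, with adjusted p up to 0.0994 over the alternatives. Its neighbour col4a5 had 29.0, 31.5 and 34.0 CPM in notochord-removed tails and 32.9, 36.7 and 39.8 CPM in whole stage 63 tails, which overlapped. That difference of -0.21 (SE 0.077) missed the threshold, with an adjusted p of 0.0509 from the same edgeR fit. It was called under 6 of 19 alternatives, among them the fits without notochord-removed replicate 3 (-0.27, adjusted p = 0.00568, edgeR) and without whole stage 63 replicate 1. The common chains col4a1 and col4a2 differed by -0.035 (SE 0.096) and 0.012 (SE 0.092). Their approximate 95% intervals, from the SE, ran from -0.22 to 0.15 and from -0.17 to 0.19.

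The fibrillar gene col24a1 fell by 0.38 (SE 0.075; adjusted p = 0.00116, edgeR's quasi-likelihood test) in notochord-removed tails, to 17.4 to 18 CPM against 22.5 to 23.4 CPM in whole stage 63 tails. The other 6 fibrillar genes were not called, and their differences lay between -0.061 for COL5A3 and 0.16 for col1a2. For col3a1 the difference was 0.059 (SE 0.081), with an approximate 95% interval of -0.10 to 0.22. For COL5A2 the interval was -0.19 to 0.08. The groups did not overlap for col27a1, 81.8 to 82.7 CPM in notochord-removed tails and 73.5 to 78.1 CPM in whole stage 63 tails, yet its difference of 0.11 (SE 0.063) had an adjusted p of 0.217 in edgeR's test.

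The FACIT gene col20a1 fell by 0.65 (SE 0.15; adjusted p = 0.00291, edgeR's quasi-likelihood test) in notochord-removed tails, with 266 counts there and 435 in whole stage 63 tails. The groups did not overlap. The largest FACIT difference upwards, 0.28 (SE 0.15) for col21a1, was not called (adjusted p = 0.178, edgeR). Its 5.12, 5.76 and 3.80 CPM in notochord-removed tails overlapped the 4.42, 4.42 and 3.26 CPM of whole stage 63 tails. Without notochord-removed replicate 3 it was called, at 0.44 (adjusted p = 0.0102, edgeR). For col12a1 the difference was 0.20 (SE 0.20), with an approximate 95% interval of -0.18 to 0.59. COL17A1, col13a1 and COL25A1 were not called, with differences of -0.09, -0.11 and 0.059, and neither was col18a1 with 0.15 (SE 0.13).

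Among the other collagens, col6a1 had 265, 272 and 289 CPM in notochord-removed tails and 301, 324 and 335 CPM in whole stage 63 tails. It fell by 0.22 (SE 0.063; adjusted p = 0.0157, edgeR's quasi-likelihood test), while its partners col6a2 and COL6A3 differed by 0.023 (SE 0.078) and 0.011 (SE 0.25). Leaving out notochord-removed replicate 1 or 2, or whole stage 63 replicate 2 or 3, ended the col6a1 call, with adjusted p up to 0.0678. The col6a1 to col6a2 ratio per kb was 0.93, 0.942 and 0.842 in notochord-removed tails and 1.08, 1.10 and 1.02 in whole stage 63 tails, without overlap. With 3 libraries against 3, an exact two-sided permutation test of such a ratio cannot go below p = 0.1. COL28A1 was not called, at -0.23 (SE 0.12).

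The prolyl hydroxylase subunit gene p4ha2 had 45.7, 44.9 and 41.7 CPM in notochord-removed tails, 33.3, 31.5 and 30.7 CPM in whole stage 63 tails and 13.9, 14.1 and 13.6 CPM in stage 60 tails. The 3 groups were fully apart. It rose 1.39-fold in notochord-removed over whole tails at stage 63, a log2 difference of 0.47 (SE 0.062; adjusted p = 1.92e-05, edgeR's quasi-likelihood test). The chaperone gene serpinh1 had 135, 139 and 179 CPM in notochord-removed tails, 120, 123 and 134 CPM in whole stage 63 tails and 50.0, 45.5 and 48.1 CPM in stage 60 tails. Its difference of 0.27 (SE 0.087; adjusted p = 0.0302, edgeR) rested in part on the library numbered 3. Without notochord-removed replicate 3 the serpinh1 difference was 0.13 (adjusted p = 0.106, edgeR) and the call was lost. It was also lost without whole stage 63 replicate 1 or 2 and with DESeq2, and adjusted p reached 0.114 over the alternatives.

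The other enzymes were not called with all 9 libraries. The lysyl hydroxylase genes all lay below 0, at -0.15 (SE 0.11) for plod1, -0.24 (SE 0.09) for plod2 and -0.26 (SE 0.095) for plod3. For plod2 the groups did not overlap, with 15.7, 15.1 and 15 CPM in notochord-removed tails and 19.5, 17.6 and 17.1 CPM in whole stage 63 tails, and the adjusted p was 0.0578 in edgeR's test. The level of plod3 was 17.5, 18.3 and 23.6 CPM in notochord-removed tails and 21.4, 24.8 and 25.1 CPM in whole stage 63 tails, with an adjusted p of 0.0513 from the same edgeR fit. Both plod2 and plod3 were called lower under 7 of 19 alternatives, limma-voom and the replicate block among them. Without notochord-removed replicate 3, plod2 was at -0.22 (adjusted p = 0.0496, edgeR) and plod3 at -0.41 (adjusted p = 0.000124, edgeR). The plod2 call was also gained without stage 60 replicate 3, and that of plod3 without whole stage 63 replicate 1. The lysyl oxidase genes differed by 0.18 (SE 0.068) for lox, -0.042 (SE 0.11) for loxl2 and -0.027 (SE 0.11) for loxl3. The level of lox was 179, 176 and 157 CPM in notochord-removed tails and 159, 153 and 141 CPM in whole stage 63 tails, and the groups overlapped. It was called higher under 5 of 19 alternatives, among them without notochord-removed replicate 3 (0.24, adjusted p = 0.00316, edgeR) and without whole stage 63 replicate 1. For bmp1 the groups were apart, and the difference of 0.16 (SE 0.067) had an adjusted p of 0.0959 in edgeR's test and of 0.0494 with library size only. The value for col4a3bp was -0.0089 (SE 0.059).

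How many genes passed depended on the notochord-removed library numbered 3. Without it, 12 of the 38 were called lower and 3 higher. Among those lower were COL17A1 (-0.18, adjusted p = 0.0399, edgeR), loxl2 (-0.21, adjusted p = 0.0268, edgeR) and loxl3 (-0.21, adjusted p = 0.0499, edgeR). Over all genes that fit gave 1939 lower and 2484 higher, against 1570 and 2043 with all 9 libraries. The number of calls thus also rose over all genes. The difference of col1a2 was called higher without whole stage 63 replicate 3 (adjusted p = 0.0494, edgeR). Without replicate 3 of all groups, a setting chosen after the data were seen, 3 were higher and 9 lower, against 2284 and 1830 of all genes. The calls of col8a2, col20a1, col24a1 and p4ha2 held under all 19 alternatives tried. By class, the median notochord difference was -0.21 for network, -0.032 for fibrillar, 0.088 for FACIT, -0.09 for transmembrane, -0.015 for other collagens and -0.027 for the enzymes and chaperone. The 7 network genes include col8a1, which the authors picked on this contrast, and 2 of the 7 lay above 0. The network share of the summed chains was 4.78%, 4.75% and 4.88% in notochord-removed tails and 5.01%, 5.17% and 5.15% in whole stage 63 tails. The transmembrane share was between 11.2% and 11.4% in notochord-removed tails and between 12.1% and 12.5% in whole stage 63 tails, and the other collagens took between 10.4% and 10.7% in notochord-removed tails and between 11.3% and 11.4% in whole stage 63 tails. In these 3 classes the groups did not overlap. The fibrillar shares of both groups met at 62.7%, and the FACIT and multiplexin shares overlapped. Shares of the same sum depend on each other, and 39.3% of all genes tested did not overlap either.

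**Figure D5:**
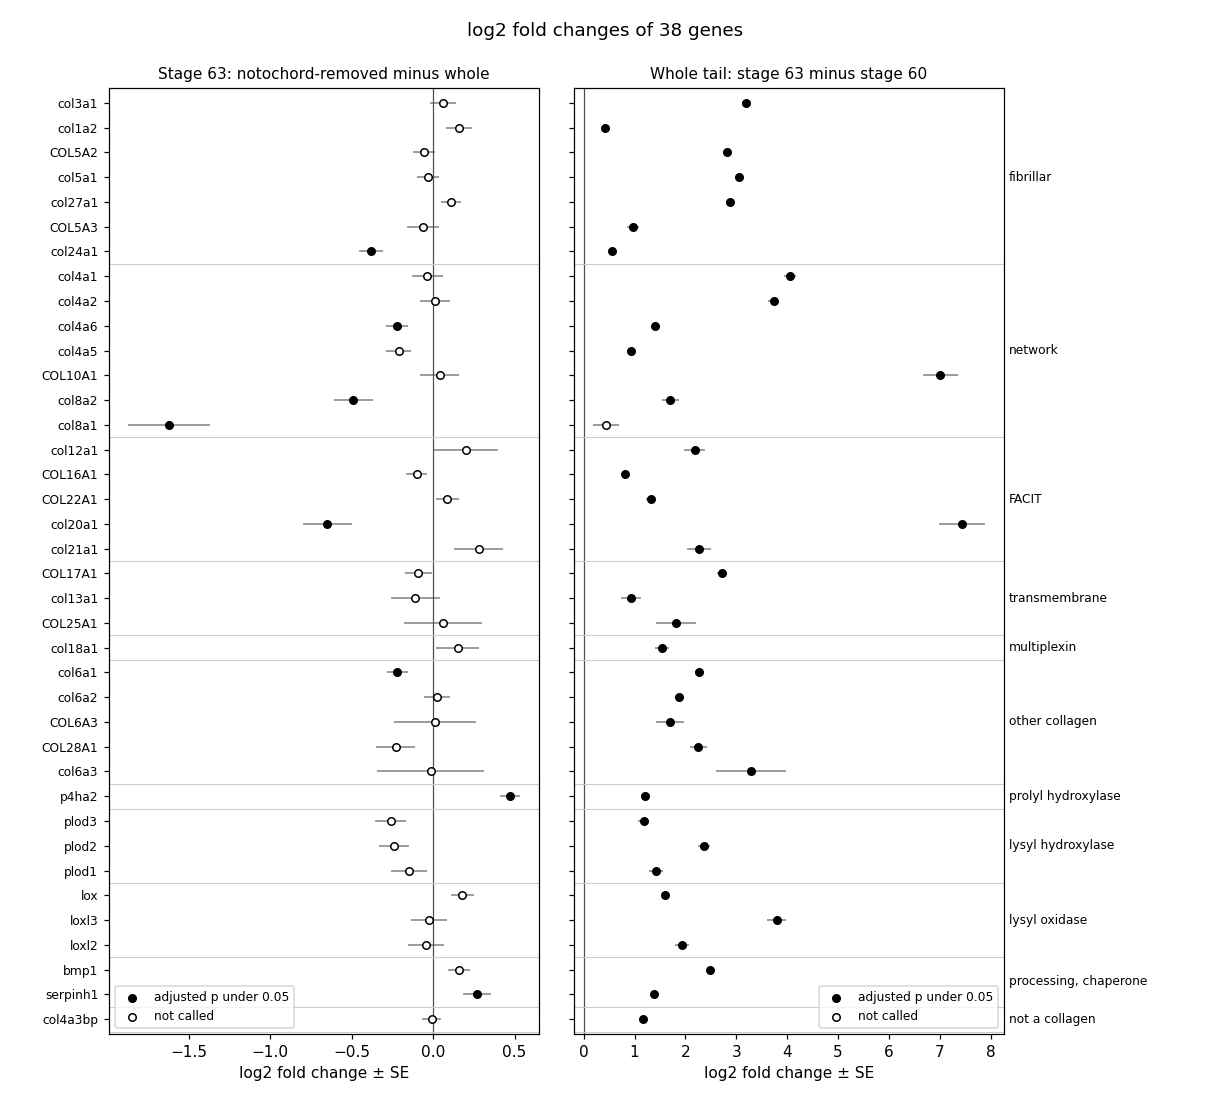
Log2 difference of each of the 38 genes, with bars for the SE, for notochord-removed minus whole tails at stage 63 (left) and for whole tails at stage 63 minus stage 60 (right); filled points passed edgeR's test and open points did not, and the right panel and col8a1 on the left are descriptions of genes chosen on that contrast. Stage differences lie above 0 for all 38 genes, while notochord differences lie between -1.62 for col8a1 and 0.47 for p4ha2.

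Notochord-removed stage 63 tails were also set against stage 60 tails. This shares its stage 60 libraries with the comparison that chose the genes and is given for its values only. Of the 38 genes, 36 were called higher, col8a1 was lower, and col24a1 was not called, against 43.3% higher and 39.7% lower of all genes tested. The median difference was 1.88 over the 38 genes and 0.068 over all genes. The value of col8a1 was -1.18 (SE 0.31), but the stage 60 library with 0.746 CPM lay within its notochord-removed range of 0.674 to 0.820 CPM. For col24a1 the difference was 0.17 (SE 0.083), against 0.55 (SE 0.082) in whole tails over the same stage 60 libraries.

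Several of the genes are neighbours by the positions in the count table, which names scaffolds but no genome build. The genes col4a2 (GL172678.1:1268504-1316778, minus strand) and col4a1 (GL172678.1:1380164-1477262, plus strand) point away from each other, 63385 bases apart with 0 annotated genes between. The genes col4a5 (GL172646.1:191653-249635, minus strand) and col4a6 (GL172646.1:367476-416083, plus strand) have the same arrangement, 117840 bases apart. Type IV genes are known to lie in head-to-head pairs in mammals too. Here only the order, strand and spacing of the gene models were read, and start sites were not examined. COL5A2 (GL172638.1:2427316-2485168, plus strand) and col3a1 (GL172638.1:2498757-2554566, minus strand) run toward each other and are 13588 bases apart. The genes col6a2 (GL172651.1:3342570-3368028) and col6a1 (GL172651.1:3428046-3463570) both lie on the minus strand, 60017 bases apart. Both genes of each pair were higher at stage 63 in whole tails, by 3.73 and 4.05 for col4a2 and col4a1, by 0.93 and 1.41 for col4a5 and col4a6, by 2.82 and 3.19 for COL5A2 and col3a1, and by 1.87 and 2.26 for col6a2 and col6a1. All of these genes are in the authors' stage list, so the shared direction comes with that choice. In the notochord comparison col6a1 and col4a6 were called and their neighbours were not, and the difference within a pair was not tested.

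Around these genes stands a wider pathway of folding, secretion, cleavage, fibril assembly and uptake, of which 44 genes were tested. Of the symbols looked up, some of them alternative names, the authors' lists named 7 of 19 for folding, 6 of 17 for secretion and 7 of 10 for cleavage. For fibril assembly 14 of 23 were named, and for receptors and uptake 9 of 14. Genes not named there, such as p4hb, mia3 and lum, were not examined. As with the 38 genes, all 44 tested were named through the stage list. Of these, 43 were called higher at stage 63 over stage 60 in whole tails, against 43.0% of all genes tested. Among genes named in the stage list the share was 93.4%. The largest stage differences were 4.26 (SE 0.13) for ddr2 (ENSXETG00000004752), a collagen receptor kinase, 3.99 (SE 0.14) for fn1, the fibronectin on which fibrils assemble, and 3.62 (SE 0.12) for itga2, a collagen-binding integrin chain. The smallest were 0.21 (SE 0.068) for a second identifier of ddr2 (ENSXETG00000023452), 0.23 (SE 0.062) for the disulfide isomerase gene pdia3, and 0.34 (SE 0.071) for tram2, of the secretory pathway. Between notochord-removed and whole tails at stage 63, 5 were higher, 8 lower and 31 not called, against 14.5% higher and 11.1% lower of all genes tested, with a median of -0.03. One of the 8, adamts14, had been picked by the authors on this contrast.

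Of those, the small proteoglycan bgn had 1826, 1833 and 1827 CPM in notochord-removed tails and 1469, 1424 and 1371 CPM in whole stage 63 tails. It rose by 0.36 (SE 0.064; adjusted p = 0.00038, edgeR's quasi-likelihood test). The procollagen amino-propeptidase gene adamts2 rose by 0.25 (SE 0.065; adjusted p = 0.00881, edgeR) and the uptake receptor gene mrc1 by 0.35 (SE 0.066; adjusted p = 0.000743, edgeR). The secreted matrix protein gene ctgf fell by 0.64 (SE 0.061; adjusted p = 3.21e-07, edgeR), with 108, 110 and 109 CPM in notochord-removed tails and 183, 165 and 164 CPM in whole stage 63 tails. The adhesion receptor gene adgrg1, whose product binds type III collagen in mice, fell by 0.55 (SE 0.083; adjusted p = 7.46e-05, edgeR). The calls of these 5 genes held under all 19 alternatives. The related propeptidase gene adamts14 was 1.08 lower (SE 0.18), a value given without a test because the authors' notochord list had picked it.

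The other 7 calls were each lost under at least 2 alternatives. Higher in notochord-removed tails were efemp2 by 0.30 and mep1a by 0.44. Lower were ogn (-0.24), furin (-0.22), mrc2 (-0.35) and the COPII coat genes SEC23A (-0.26) and sec24d (-0.18). Leaving out whole stage 63 replicate 2 ended the calls of all of these but mep1a, whose call was lost without notochord-removed replicate 1 or 2, whole stage 63 replicate 1 or 3, or stage 60 replicate 3. Leaving out whole stage 63 replicate 1 also ended the calls of ogn, efemp2 and sec24d, and leaving out notochord-removed replicate 1 or 2 or whole stage 63 replicate 3 those of SEC23A, sec24d and mrc2. The count of pathway genes called lower ran from 3 without whole stage 63 replicate 2 to 14 without notochord-removed replicate 3. The same library that moved the collagen counts thus moved these. Over all genes the number called lower was 991 and 1939 in these fits.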

How the data were processed

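Illumina TruSeq RNA kit libraries of total RNA were sequenced, per the labels' protocols. The submitters' processing notes name STAR 2.5.4a and featureCounts 1.5.2. Neither the genome build, the strand setting nor the handling of shared reads is stated, so overlapping genes and near-identical copies are uncertain. Values used are raw counts per Ensembl gene, with gene lengths, per the file headers. In the authors' deposited lists each named gene has a mean FPKM for every group and a ratio of the means. All 18881 FPKM values checked equalled counts over library total and gene length within 0.1%.

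The count test was edgeR 4.0.16 in R 4.3.3 (filterByExpr, TMM, estimateDisp, robust glmQLFit, glmQLFTest), two-sided, on all 9 libraries with group means. The SE was computed as the absolute log2 fold change over the root of F. Counting intervals are exact and cover counting error only. The fits were tested on simulated data. No label ties libraries to separate animals, and p-values then reflect only the spread of these libraries, which may be technical. Every pair of libraries within a group differed beyond sampling noise.

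The members, gene lists and tests were chosen with earlier results of these data known. Named in full are all fibrillar genes, per class the member with the highest level and those with the largest and smallest notochord difference, and members at least 2-fold different; of the wider pathway, those called for the notochord and the 3 largest and 3 smallest stage differences. Other genes singled out were chosen after their values were seen. As alternatives, scaling, filter, test (DESeq2 1.42.0, voom in limma 3.58.1), threshold and the libraries in the fit were changed one at a time, and a replicate block was added.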

Additional observations from a re-analysis of the deposited data

How the results depend on the processing

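Over 19 alternatives per comparison (18 planned) no call of the 38 genes changed sign. Among single-gene values of the notochord comparison 629 kept their side of the threshold, 16 lost a call, 31 gained one and 46 changed sign without a call. Counts that moved by over 1.5 times were mostly those of the notochord comparison (2 higher and 6 lower with TMM). The number higher was 4 with library size only, 1 with DESeq2, 1 with only the 6 libraries, 1 at adjusted p under 0.01, and 1 to 3 with single libraries left out; the number lower was 4 to 12 with single libraries left out. Over all genes, leaving out single libraries gave 1490 to 2484 higher and 991 to 1939 lower, and the stricter threshold gave 1281 and 789. Library size only gave a stage median of 2.66 and 9501 genes higher and 2821 lower; over stage 60, notochord-removed tails had a median of 2.72, with 0 members lower and 9794 genes higher and 2566 lower. This scaling also moved the median of all genes, by 0.82 between the stages in whole tails and by 0.85 for notochord-removed tails over stage 60. Single libraries left out moved the stage median between 1.77 and 1.93. No label says whether replicate numbers pair the samples. Deviations of same-numbered notochord-removed and whole stage 63 libraries correlated at 0.191, -0.0348 and 0.224 over genes. Libraries of unlike number from these groups correlated at -0.267 to 0.141, and these values do not settle whether the samples are paired. With a replicate block 3 members were higher and 9 lower for the notochord, against 2253 and 1951 of all genes. For the stage the block gave 37 and 0, and leaving out replicate 3 of all groups gave 38 and 0. The cause of the shifts was not tested. Genes under 1 CPM, such as COL25A1, rest on few counts, which limits their precision.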
